A study of Danio rerio with 15 samples.

Results

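The genes described here are 6 classical transcriptional targets of the tumour suppressor p53, namely mdm2, cdkn1a, ccng1, gadd45aa, sesn1 and phlda3, followed across neutrophils of wildtype and tet mutant zebrafish embryos. They were chosen by symbol, and all 6 were found among the 15937 genes of the deposited table. All 6 also passed the filter on low values.

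The study sequenced RNA of neutrophils that had been sorted from whole embryos by green fluorescent protein under the promoter of mpx, the myeloperoxidase gene. There were 15 libraries in 5 groups, with n = 3 in each. Groups at 2 days post fertilization (dpf) were wildtype, tet2-/- (here tet2 mutants), tet3-/- (tet3 mutants) and tet2/3DM (double mutants of tet2 and tet3). The last group was wildtype at 1.5 dpf. All 5 groups carried the mpx:GFP reporter by which the cells were sorted. The enzymes Tet2 and Tet3 oxidise the methyl mark on cytosine in DNA. The mutant alleles are not described in the sources used here, nor is it stated whether replicates were independent clutches or sorts. The p-values below therefore measure only the spread among these samples, part of which may be technical.

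p53 is a transcription factor that is held at a low level by Mdm2, a ubiquitin ligase that marks it for destruction. DNA damage and other stresses release p53 from Mdm2, and p53 then switches on genes of cell cycle arrest, DNA repair, metabolism and cell death, mdm2 among them, which closes a feedback loop. Mature neutrophils no longer divide and are short-lived cells that die by apoptosis.

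Values are normalised read counts, that is, reads corrected for the depth of their library by a size factor. They are not scaled to transcript length, so levels are compared between groups and never between genes. Changes are differences in log2(value + 1), which understates the change of genes with low values, and each is given with its standard error (SE). Tests were limma's moderated test fitted to all 15 libraries at once, with Benjamini-Hochberg adjustment over the 15933 genes that passed the filter. The spread between libraries was pooled over the 5 groups. A gene is said to have risen or fallen where its adjusted p was under 0.05.

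Libraries held 5.64 to 31.06 M (mega) reads, with double mutants the deepest at 27.19 to 31.06 M and tet3 mutants the shallowest at 5.64 to 13.65 M. mpx lay between 25586 and 89852 and lyz, the lysozyme gene of neutrophils and macrophages, between 68382 and 198732 over the 15 libraries. The mutated genes could not be used to check the labels. Reads of tet2 numbered 1713 ± 176 (SD, n = 3) in wildtype at 2 dpf, 1643 ± 304 in its own mutant and 1503 ± 973 in double mutants, and reads of tet3 numbered 1374 ± 229.5, 1993 ± 399 and 2324 ± 665 in wildtype, its own mutant and double mutants. In no mutant did either targeted gene pass, with limma adjusted p-values from 0.1 to 0.99. The stress chaperone genes hsp70l and hsp70.3 together took 3.52 to 4.14% of counts in wildtype at 2 dpf and 2.18 to 4.88% in tet2 mutants. Their share was 0.279 to 0.299% in tet3 mutants, 0.057 to 0.107% in wildtype at 1.5 dpf, and 0.0789, 1.89 and 0.603% in double mutant replicates 1, 2 and 3. The 3 double mutant libraries thus lay far from one another, replicate 1 at the low end and replicate 2 at the high end. Results of the 6 members in double mutants are given without either library where a call or a direction depends on it. In these bulk samples, fewer cells of a type and less RNA per cell cannot be told apart.

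Among the 6 targets the lowest adjusted p-values were those of ccng1. Cyclin G1, its product, is a p53 target that in mammals brings protein phosphatase 2A to Mdm2. ccng1 was low in tet3 mutants and in wildtype at 1.5 dpf. In wildtype at 2 dpf the 3 libraries held 20029, 14787 and 14859 normalised reads, or 16559 ± 3006. Tet2 mutants held 13030, 23496 and 16389, or 17639 ± 5344. These groups overlapped. Tet3 mutants held 4628, 4654 and 7614, or 5632 ± 1716, and every one of them was below every library of wildtype at 2 dpf. The level was 5673, 5414 and 5220 in wildtype at 1.5 dpf, or 5436 ± 228, again below every library of wildtype at 2 dpf and within the range of tet3 mutants. Double mutants spread widely between these levels, at 7162, 15261 and 10146, or 10856 ± 4096, and their replicate 2 lay within the range of wildtype at 2 dpf.

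Against wildtype at 2 dpf, ccng1 fell in tet3 mutants by 1.58 on the log2 scale (SE 0.274, 95% interval -2.16 to -1, limma adjusted p = 0.0033), which is 2.99-fold lower. In wildtype at 1.5 dpf it was lower than at 2 dpf by a log2 difference of -1.59 (95% interval -2.17 to -1.01, limma adjusted p = 0.00098), or 3.02-fold. Both comparisons use the same wildtype libraries at 2 dpf, so they are not independent. ccng1 stayed under the threshold in both when any library of the compared groups was left out. Tet2 mutants gave a log2 difference of 0.06 (95% interval -0.518 to 0.644, limma adjusted p = 0.99). Double mutants gave -0.66 (95% interval -1.24 to -0.0821, limma adjusted p = 0.16). Without double mutant replicate 2 that difference was -0.94, with a limma adjusted p of 0.037, so whether double mutants pass depends on that library. Without replicate 1 it was -0.40 (adjusted p = 0.46). Between double mutants and tet3 mutants the log2 difference was 0.92 (95% interval 0.338 to 1.5, limma adjusted p = 0.099), and without double mutant replicate 1 it was 1.18 (adjusted p = 0.039).

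**Figure D1:**
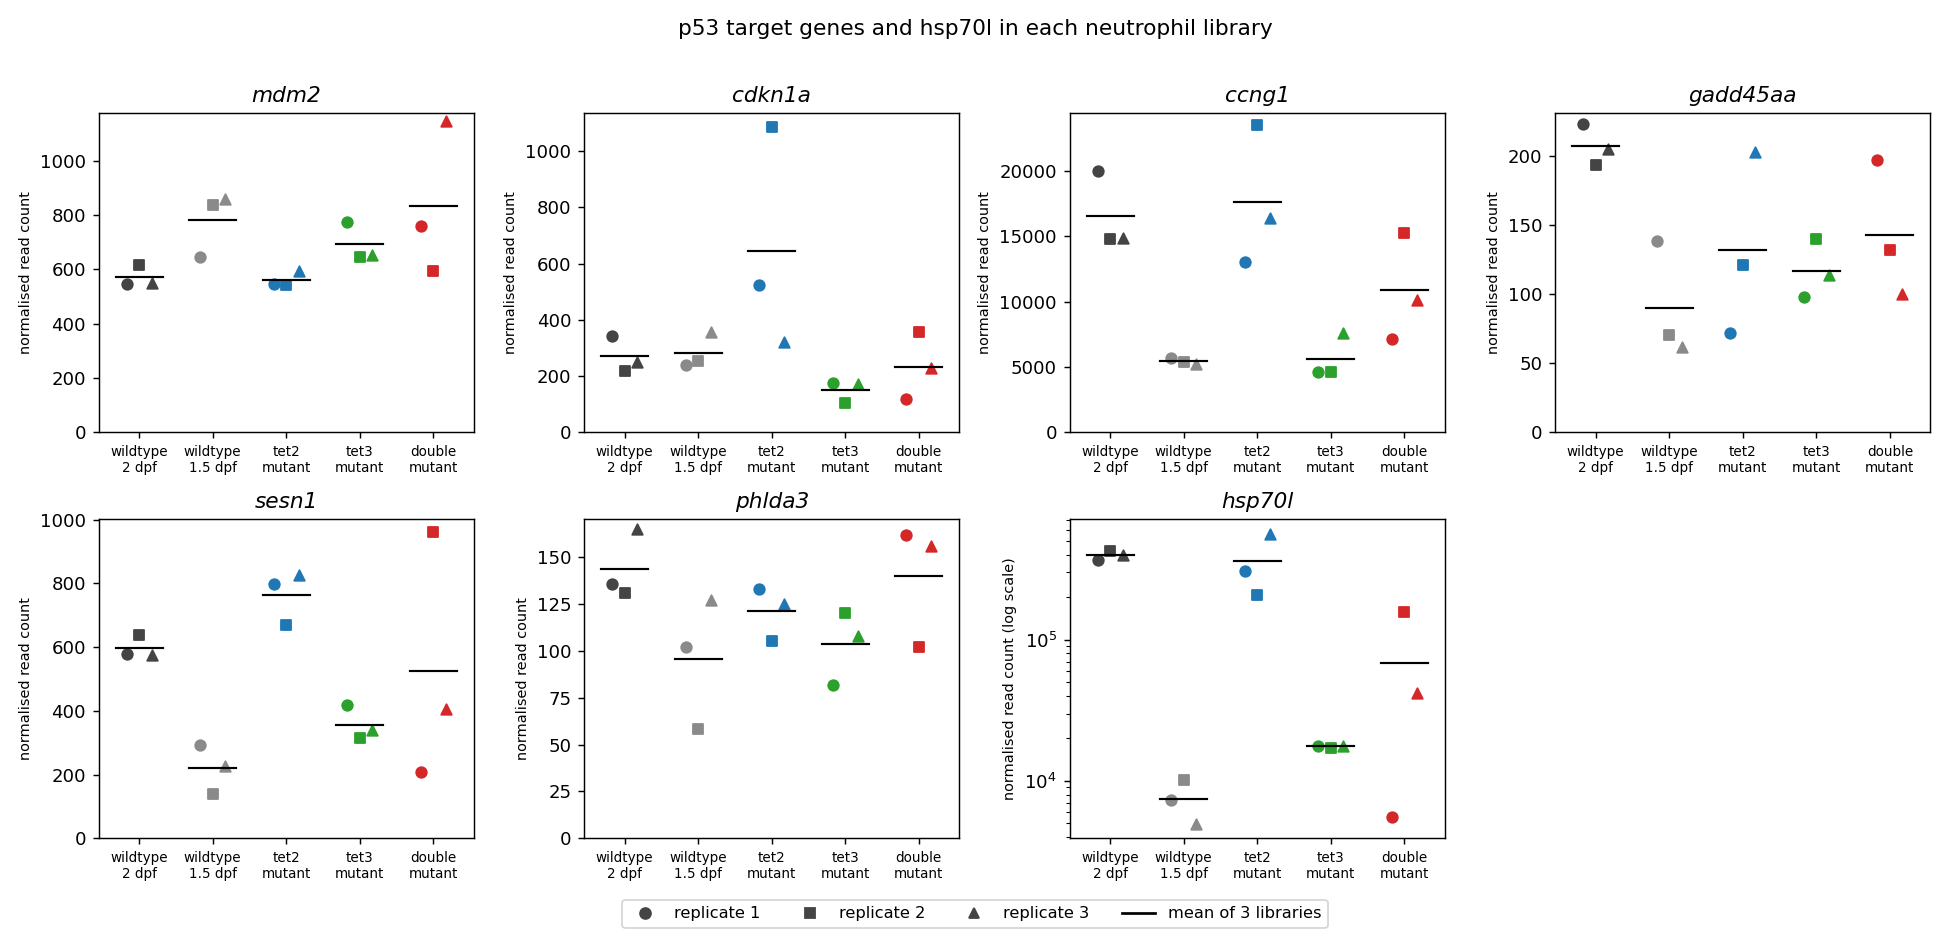
Normalised read counts of the 6 p53 target genes and hsp70l in each of the 15 libraries, by group; symbols mark the replicate and bars the mean of 3 libraries, and the hsp70l axis is a log scale. ccng1 was at most 7614 in every library of tet3 mutants and of wildtype at 1.5 dpf and at least 13030 in every library of wildtype at 2 dpf and tet2 mutants.

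cdkn1a encodes p21, the inhibitor of cyclin-dependent kinases through which p53 halts the cell cycle. Its libraries varied widely within tet2 and double mutants. Wildtype at 2 dpf held 344, 219 and 252 normalised reads (271 ± 64.7) and wildtype at 1.5 dpf held 239, 255 and 356 (283 ± 63.3), so the stages overlapped. Tet2 mutants held 526, 1086 and 320 (644 ± 397), the highest mean of the 5 groups, carried mostly by replicate 2. Tet3 mutants held 177, 105 and 172 (152 ± 40.1), all below every wildtype library at either stage. Double mutants held 117, 355 and 229 (234 ± 119) and overlapped both tet3 mutants and wildtype.

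No comparison of cdkn1a passed the test. The log2 difference from wildtype at 2 dpf was 1.09 in tet2 mutants (95% interval 0.186 to 1.99, limma adjusted p = 0.67), -0.85 in tet3 mutants (95% interval -1.75 to 0.0547, adjusted p = 0.25) and -0.33 in double mutants (95% interval -1.23 to 0.575, adjusted p = 0.71). The last value turned to 0.10 without double mutant replicate 1 (adjusted p = 0.93), and without replicate 2 it was -0.70 (adjusted p = 0.35). Between double mutants and tet2 mutants it was -1.42 (95% interval -2.32 to -0.514), at a limma adjusted p of 0.074. DESeq2 on recovered reads called this last difference, and limma called it at -1.79 (adjusted p = 0.023) without double mutant replicate 2, while without replicate 1 it was -0.99 (adjusted p = 0.3).

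mdm2, the negative regulator in the feedback loop, showed its widest spread in double mutants. Its level was 546, 615 and 551 in wildtype at 2 dpf (571 ± 38.8) and 546, 541 and 595 in tet2 mutants (561 ± 30.2), groups that overlapped. Tet3 mutants held 774, 647 and 654 (692 ± 71.4) and wildtype at 1.5 dpf held 644, 836 and 861 (780 ± 119), in both cases above every library of wildtype at 2 dpf. Double mutants held 760, 594 and 1145 (833 ± 283), with replicate 2 inside the wildtype range and replicate 3 the highest of all 15 libraries. The log2 difference from wildtype at 2 dpf was 0.49 in double mutants (SE 0.216, limma adjusted p = 0.18), 0.27 in tet3 mutants (adjusted p = 0.49), -0.02 in tet2 mutants (adjusted p = 0.99) and 0.44 in wildtype at 1.5 dpf (adjusted p = 0.16). None of these passed. Without double mutant replicate 2 the double mutant value was 0.71, with a limma adjusted p of 0.042, and without replicate 1 it was 0.53 (adjusted p = 0.22).

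gadd45aa encodes a stress protein which in mammals binds PCNA and activates stress kinases, and which in vertebrates has also been linked to removal of DNA methylation. It was highest in wildtype at 2 dpf, at 223, 194 and 205 normalised reads (208 ± 14.9). Wildtype at 1.5 dpf held 138, 70.301 and 61.5 (90.1 ± 42.1), all lower. Tet3 mutants held 97.7, 140.4 and 114 (117 ± 21.6), also all lower, while tet2 mutants at 72.0, 122 and 203 (132 ± 66.3) and double mutants at 197, 132 and 100.1 (143 ± 49.6) each had 1 library within the range of wildtype at 2 dpf. The difference between the stages was -1.29 on the log2 scale (SE 0.391, limma adjusted p = 0.029), so gadd45aa was lower at 1.5 dpf. That call is fragile, since it was lost with 5 of the 6 libraries left out in turn, with adjusted p-values up to 0.091, and its adjusted p was 0.088 after quantile normalization. No mutant passed, at -0.83 in tet3 mutants (limma adjusted p = 0.22), -0.77 in tet2 mutants (adjusted p = 0.82) and -0.59 in double mutants (adjusted p = 0.41).

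sesn1 encodes a sestrin, which in mammals restrains the growth kinase complex mTORC1. Wildtype at 2 dpf held 580, 637 and 575 normalised reads (597 ± 34.5), and tet2 mutants held 799, 668 and 826 (764 ± 84.2), all higher. Wildtype at 1.5 dpf held 294, 138 and 226 (219 ± 78.0) and tet3 mutants held 417, 313 and 339 (357 ± 54.2), all lower than wildtype at 2 dpf. Double mutants ran from 209 in replicate 1 through 407 in replicate 3 to 961 in replicate 2 (525 ± 390), which spans nearly the whole range of the study. sesn1 was lower at 1.5 than at 2 dpf by -1.51 on the log2 scale (SE 0.398, limma adjusted p = 0.015). The adjusted p of that difference was 0.053 without wildtype 2 dpf replicate 2 and 0.068 without wildtype 1.5 dpf replicate 2. In tet3 mutants the difference was -0.75 (limma adjusted p = 0.28), in tet2 mutants 0.35 (adjusted p = 0.94) and in double mutants -0.46 (adjusted p = 0.54). Without double mutant replicate 2 the double mutant value was -1.03, with a limma adjusted p of 0.047, whereas without replicate 1 it was 0.07 (adjusted p = 0.94), so its direction depends on which library is left out.

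phlda3, which encodes a small lipid-binding protein that in mammals keeps the kinase Akt from the membrane, passed in no comparison. Its level was 136, 131 and 165 in wildtype at 2 dpf (144 ± 18.5), 102, 58.6 and 127 in wildtype at 1.5 dpf (95.9 ± 34.6) and 133, 105 and 125 in tet2 mutants (121 ± 14.4). It was 81.9, 120.4 and 108 in tet3 mutants (103 ± 19.7) and 162, 102 and 156 in double mutants (140 ± 32.9). Tet3 mutants and wildtype at 1.5 dpf were below every library of wildtype at 2 dpf, and the other groups overlapped it. The log2 differences from wildtype at 2 dpf were -0.64 at 1.5 dpf (95% interval -1.32 to 0.0358, limma adjusted p = 0.17), -0.48 in tet3 mutants (adjusted p = 0.4), -0.25 in tet2 mutants (adjusted p = 0.95) and -0.06 in double mutants (adjusted p = 0.94).

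The groups can be ordered by their mean level of each gene. Wildtype at 1.5 dpf was lowest and tet3 mutants next for ccng1, gadd45aa, sesn1 and phlda3, whereas tet3 mutants were lowest for cdkn1a and tet2 mutants lowest for mdm2. Neighbours in these orders overlapped in their libraries, apart from 3 steps. These were wildtype at 2 dpf and tet3 mutants for mdm2, wildtype at 1.5 dpf and tet3 mutants for sesn1, and wildtype at 2 dpf and tet2 mutants for sesn1. Of these, the mdm2 step and the sesn1 step to tet2 mutants did not pass the test, and the sesn1 step from wildtype at 1.5 dpf to tet3 mutants was not tested.

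**Figure D2:**
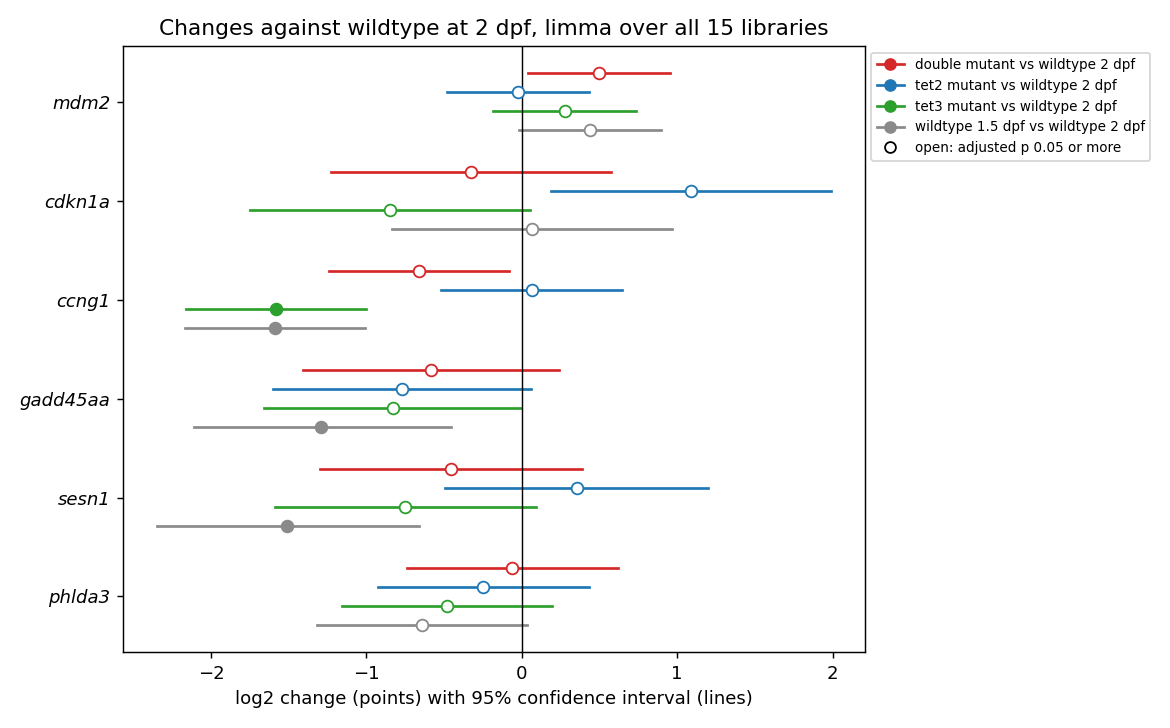
Log2 changes against wildtype at 2 dpf (horizontal axis, log2 units) of the 6 target genes in 4 comparisons, with 95% intervals as lines; filled points have a limma adjusted p under 0.05. The filled points are ccng1 in tet3 mutants and ccng1, gadd45aa and sesn1 in wildtype at 1.5 dpf, all to the left of 0.

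Counted by comparison, 3 of the 6 targets fell and none rose at 1.5 dpf against 2 dpf, where 20.8% of all tested genes were called, 11.6% as lower. The median change of the 6 was -0.96 on the log2 scale beside -0.01 for all genes. The libraries of the stages did not overlap for 4 members that were lower and 1, mdm2, that was higher, beside 22.4% and 20.9% of all genes in those directions. In tet3 mutants against wildtype, 1 of 6 fell and none rose, beside 7.27% of all genes called and 3.58% called lower. The median of the 6 was -0.79 beside -0.04 for all genes. All 6 members separated the libraries of tet3 mutants from those of wildtype at 2 dpf, 5 lower and mdm2 higher, beside 19.9% of all genes that were lower without overlap and 19.3% that were higher.

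That count in tet3 mutants depends on the estimate of spread. With only the libraries of tet3 mutants and wildtype at 2 dpf in the fit, 4 members fell, namely cdkn1a (limma adjusted p = 0.025), ccng1 (3e-05), gadd45aa (0.024) and sesn1 (0.003). That fit also called 24.7% of all genes, 12.3% as lower, against 7.27% and 3.58% with all libraries. edgeR and DESeq2 on recovered reads called ccng1 alone there, and the same 3 members as limma between the stages. Of all 15933 genes, edgeR called 991 in tet3 mutants and 3174 at 1.5 dpf, and DESeq2 called 1732 and 3999.

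Double mutants against wildtype gave 0 of 6 members by limma, edgeR and DESeq2, beside 8.68% of all genes called by limma. An unadjusted p under 0.05 was found for 2 members by each tool, beside 3652 of all 15933 genes by limma. All 6 members overlapped between these groups, where 31.2% of all genes did not. Their median was -0.39 beside 0.01. Without double mutant replicate 2, limma called 3 members, mdm2 as higher and ccng1 and sesn1 as lower, beside 1673 of the 15933 genes. Without replicate 1 it called 0 members, beside 6.09% of all genes. Tet2 mutants against wildtype likewise gave 0 of 6 by each tool, with 1 member (cdkn1a by limma) at an unadjusted p under 0.05 in each. Of all genes, 0.1% were called there by limma, and 1002 of 15933 had an unadjusted p under 0.05. Among the members sesn1 alone had no overlap, as higher, beside 5.54% of all genes.

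Double mutants were also set against each of the others. Against tet2 mutants, limma and edgeR called 0 of 6 and DESeq2 called 1, cdkn1a, beside 4.45% of all genes called by limma. Each tool had 3 members under an unadjusted 0.05, beside 2849 of the 15933 genes by limma. DESeq2 called 1316 of all 15933 genes in that comparison. Without double mutant replicate 2, limma called 4 of 6 in that comparison, mdm2 as higher and cdkn1a, ccng1 and sesn1 as lower, beside 7.19% of all genes, and without replicate 1 it called 0, beside 2.93%. Against tet3 mutants, limma and edgeR called 0 and DESeq2 called 1, ccng1, beside 2.33% of all genes called by limma. Each tool had 1 member under an unadjusted 0.05, beside 2461 of the 15933 genes by limma. DESeq2 called 854 of all 15933 genes there. With double mutant replicate 1 left out, limma called ccng1 there too, beside 1.97% of all genes. The interaction asks whether the double mutant differs from the sum of the changes in tet2 and tet3 mutants. It gave 0 of 6 by each tool, beside 0.333% of all genes by limma. An unadjusted p under 0.05 was found for 1 member (ccng1) by limma, 0 by edgeR and 1 by DESeq2. By limma, 1295 of the 15933 genes had such a p-value. For ccng1 the interaction was 0.86 on the log2 scale (95% interval 0.0347 to 1.68, limma adjusted p = 0.59).

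The level of heat-inducible chaperone genes was high in the groups where ccng1 and sesn1 were high, and ordered the double mutant libraries alike. hsp70l, a chaperone gene induced by heat and other stress, ranged from 208418 to 564696 normalised reads in tet2 mutants and from 367872 to 426506 in wildtype at 2 dpf. It held 17123 to 17787 in tet3 mutants and 4965 to 10181 in wildtype at 1.5 dpf. Of 14 tested chaperone genes, 11 fell in tet3 mutants and 12 fell at 1.5 dpf, beside 3.58% and 11.6% of all genes. In double mutants 12 fell by limma, beside 839 of 15933 genes, while edgeR called 5 and DESeq2 called 11. Double mutants varied most, with hsp70l at 5505, 156506 and 41711 in replicates 1, 2 and 3, and in the same order ccng1 at 7162, 15261 and 10146 and sesn1 at 209, 961 and 407. Replicate 2 was thus the highest of the 3 in hsp70l, ccng1 and sesn1, and replicate 1 the lowest. Of the other members, cdkn1a followed that order (117, 355 and 229). mdm2 (760, 594 and 1145), gadd45aa (197, 132 and 100.1) and phlda3 (162, 102 and 156) did not. How many of all genes followed that order was not counted. Within the other groups the orders of ccng1 and sesn1 differed from that of hsp70l, apart from sesn1 in tet2 mutants. hsp70l held 305594, 208418 and 564696 in tet2 mutant replicates 1, 2 and 3, where ccng1 held 13030, 23496 and 16389. sesn1 held 799, 668 and 826 there, in the order of hsp70l. In wildtype at 2 dpf hsp70l was lowest (367872) in the library with the highest ccng1 (20029), and at 1.5 dpf it was highest (10181) in the library with the lowest sesn1 (138).

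With hsp70l as a covariate in the fit, the ccng1 difference was -0.81 in tet3 mutants (limma adjusted p = 0.49) and -0.60 at 1.5 dpf (adjusted p = 0.75), and no member was called in either comparison. Of all 15933 genes that fit called 21 in tet3 mutants and 41 at 1.5 dpf, against 1159 and 3317 without the covariate. In double mutants against wildtype it called 159, against 1383. The covariate also ended every call against wildtype at 2 dpf of the paralogs and other pathway genes named further on, including those that held with any library left out. Among these the limma adjusted p was 0.11 for plk2b in double mutants and 0.15 for perp in tet3 mutants. At 1.5 dpf it was 0.43 for bbc3, 0.67 for siva1 and 0.73 for cdkn1d. The log2 difference itself was little changed or larger for plk2b (-1.36, against -1.37 without the covariate), perp (1.19 against 0.98) and bbc3 (2.31 against 2.07). It was smaller for siva1 (0.68 against 1.00) and cdkn1d (-0.42 against -1.36). Between mutants the covariate ended the call of gadd45ab in double against tet2 mutants (limma adjusted p = 0.21). plk2b stayed under the threshold against tet2 mutants (0.037) and tet3 mutants (0.0038), as did cdkn1cb against tet3 mutants (0.023). hsp70l did not overlap between wildtype at 2 dpf and each of tet3 mutants, double mutants and wildtype at 1.5 dpf. Nor did it overlap between double and tet2 mutants. The group and the hsp70l level therefore cannot be told apart within those pairs.

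**Figure D3:**
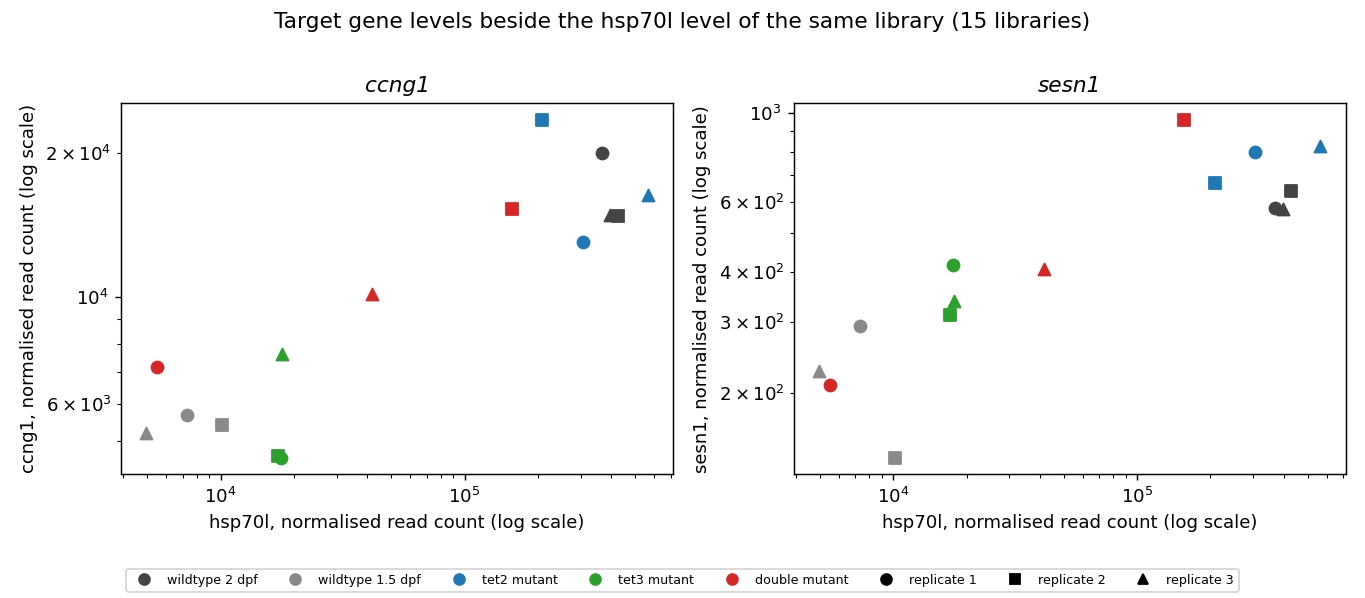
Normalised read counts of ccng1 and sesn1 (vertical axes, log scale) against hsp70l (horizontal axis, log scale) in each of the 15 libraries, with groups by colour and replicates by symbol. The 7 libraries with hsp70l at 156506 or more had the higher ccng1 and sesn1, and double mutant replicate 2 was among them while replicates 1 and 3 were not. That cutoff is the level of double mutant replicate 2 itself, and the share of all genes split alike was not counted.

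Markers of other cell types also moved between the groups, and their part in the results above was not tested. The counts below stand beside the share of all genes that limma called against wildtype at 2 dpf. That share was 20.8% at 1.5 dpf (1462 of 15933 genes higher, 1855 lower) and 0.1% in tet2 mutants. It was 7.27% in tet3 mutants (588 higher, 571 lower) and 8.68% in double mutants (544 higher, 839 lower). Genes with an unadjusted p under 0.05 by limma numbered 5486 at 1.5 dpf, 1002 in tet2, 3636 in tet3 and 3652 in double mutants. Between the stages, 14 of 14 erythroid markers were higher at 1.5 dpf, with a summed level of 161318 to 180011 against 3883 to 7234 at 2 dpf. Pigment cell markers were higher in 11 of 15 (8103 to 10122 against 3130 to 3801), endothelial markers higher in 6 and lower in 1 of 20 (7482 to 12429 against 8824 to 9392), and muscle markers lower in 3 of 17 (4542 to 10468 against 17241 to 21076). Macrophage markers were lower in 4 of 15 (33608 to 54018 against 49592 to 55978), epidermis markers higher in 1 and lower in 4 of 16 (13664 to 38366 against 41010 to 48334), and neural markers higher in 4 and lower in 5 of 17 (8178 to 20866 against 9490 to 11155). Genes of the cell cycle and replication rose in 18 of 23 at 1.5 dpf, and 3 of 19 neutrophil markers rose. For the neutrophil markers edgeR called 4 and DESeq2 called 10, and 11 had an unadjusted p under 0.05 by each tool.

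In tet2 mutants, limma and edgeR called no marker of any of these lists against wildtype at 2 dpf, and DESeq2 called 2 of 17 neural and 2 of 16 epidermis markers. An unadjusted p under 0.05 by limma was found for 5 neural, 3 epidermis, 2 macrophage, 2 erythroid, 1 endothelial, 1 muscle, 1 pigment cell and 0 neutrophil markers. By edgeR and DESeq2 it was found for 10 and 12 neural, 5 and 3 epidermis, 6 and 6 erythroid, and 6 and 6 pigment cell markers. The other counts were 0 and 1 for macrophage, 1 and 2 for endothelial, 1 and 1 for muscle and 0 and 0 for neutrophil markers. Among all 15933 genes it was found for 1002 by limma, 1165 by edgeR and 1336 by DESeq2. Summed levels of the markers ranged widely, from 162872 to 409886 for neutrophil, 20391 to 50045 for macrophage, 6138 to 14106 for endothelial and 3578 to 29258 for erythroid markers. The ranges were 5441 to 26423 for muscle, 7966 to 45125 for neural, 3202 to 8689 for pigment cell and 21138 to 111186 for epidermis markers.

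In tet3 mutants, 7 of 17 muscle markers fell (summed level 2741 to 11211), 5 of 15 pigment cell markers rose (5845 to 6966), 5 of 20 endothelial markers rose (8649 to 11902), 3 of 16 epidermis markers rose (76830 to 96132) and 1 of 15 macrophage markers rose (47960 to 50285). None of 19 neutrophil, 14 erythroid, 17 neural or 23 cell cycle genes was called there by limma or edgeR, with 0, 2, 0 and 2 at an unadjusted p under 0.05 by limma, and DESeq2 called 0, 1, 0 and 1. In double mutants, 9 of 20 endothelial markers fell (summed level 2856 to 3603) and 7 of 15 pigment cell markers rose (11572 to 13429), while macrophage markers rose in 2 and fell in 6 of 15 (41175 to 64107). The muscle sum was 2008 to 48450 in double mutants, with 2 of 17 genes lower. Of the remaining lists there, 2 of 17 neural markers rose, epidermis markers rose in 2 and fell in 1 of 16, 1 of 23 cell cycle genes fell, and limma and edgeR called none of the erythroid or neutrophil markers, of which 3 and 6 had an unadjusted p under 0.05 by limma and DESeq2 called 3 and 3. The summed neutrophil markers ranged from 250796 to 311604 in wildtype at 2 dpf, 221992 to 602706 at 1.5 dpf, 254718 to 294851 in tet3 mutants and 200511 to 249435 in double mutants. No tested marker of any of these lists was at 0 in all libraries of a group.

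Each target belongs to a small family, and the paralogs did not follow the members in every case. Tet3 mutants had 2.99-fold less ccng1 but more of its paralog ccng2, at 3668 ± 64.6 against 1607 ± 339 in wildtype at 2 dpf, a log2 rise of 1.21 (SE 0.322, limma adjusted p = 0.032). ccng2 was also higher at 1.5 than at 2 dpf, at 3441 ± 1331, by 1.04 (adjusted p = 0.033). Both calls are sensitive to single libraries, since the adjusted p in tet3 mutants was 0.054 to 0.13 when any library was left out and the call at 1.5 dpf was lost in 4 of 6 such fits. cdkn1d, which the deposited table maps to the same human gene as cdkn1a, was lower at 1.5 than at 2 dpf. It held 356 ± 24.0 against 912 ± 69.4 (log2 difference -1.36, limma adjusted p = 0.00045), while cdkn1a differed by 0.07 there (adjusted p = 0.93). The Cip/Kip inhibitor gene cdkn1ba fell at 1.5 dpf by 0.63 (limma adjusted p = 0.028, lost in 5 of 6 fits with a library left out). cdkn1cb was higher in double than in tet3 mutants by 1.40 (adjusted p = 0.044, lost in 5 of 6).

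Among the gadd45 genes, gadd45ab fell in double mutants from 519 ± 64.9 to 263 ± 59.4 (log2 difference -0.996, limma adjusted p = 0.026) and was lower than in tet2 mutants by -1.03 (adjusted p = 0.033). The first call was lost in 4 of 6 fits with a library left out and the second in 3 of 6. gadd45ba, at 4562 ± 268 in wildtype at 2 dpf, fell to 2153 ± 403 in tet3 mutants (-1.10, limma adjusted p = 0.029, lost in 5 of 6). It was also lower at 1.5 than at 2 dpf, at 2032 ± 654 (-1.22, limma adjusted p = 0.0072, held in 6 of 6). gadd45gb.1 rose in double mutants by 2.01 (limma adjusted p = 0.036, lost in 5 of 6).

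sesn3 fell at 1.5 dpf by 0.78 (limma adjusted p = 0.025, lost in 5 of 6 fits with a library left out), whereas sesn2 passed in no comparison, with log2 differences from -0.52 to 0.40. phlda1 was low in wildtype at 2 dpf, at 20.2 ± 5.99, and higher in double mutants, at 106 ± 54.5 (log2 rise 2.26, limma adjusted p = 0.045), a call lost when any library was left out. That call was also lost with the reads of all libraries thinned to the same depth. mdm4, the relative of mdm2 that also inhibits p53, and phlda2 passed in no comparison. The kit does not mark strand, and reads shared between close paralogs may have been split by the counting.

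**Figure D4:**
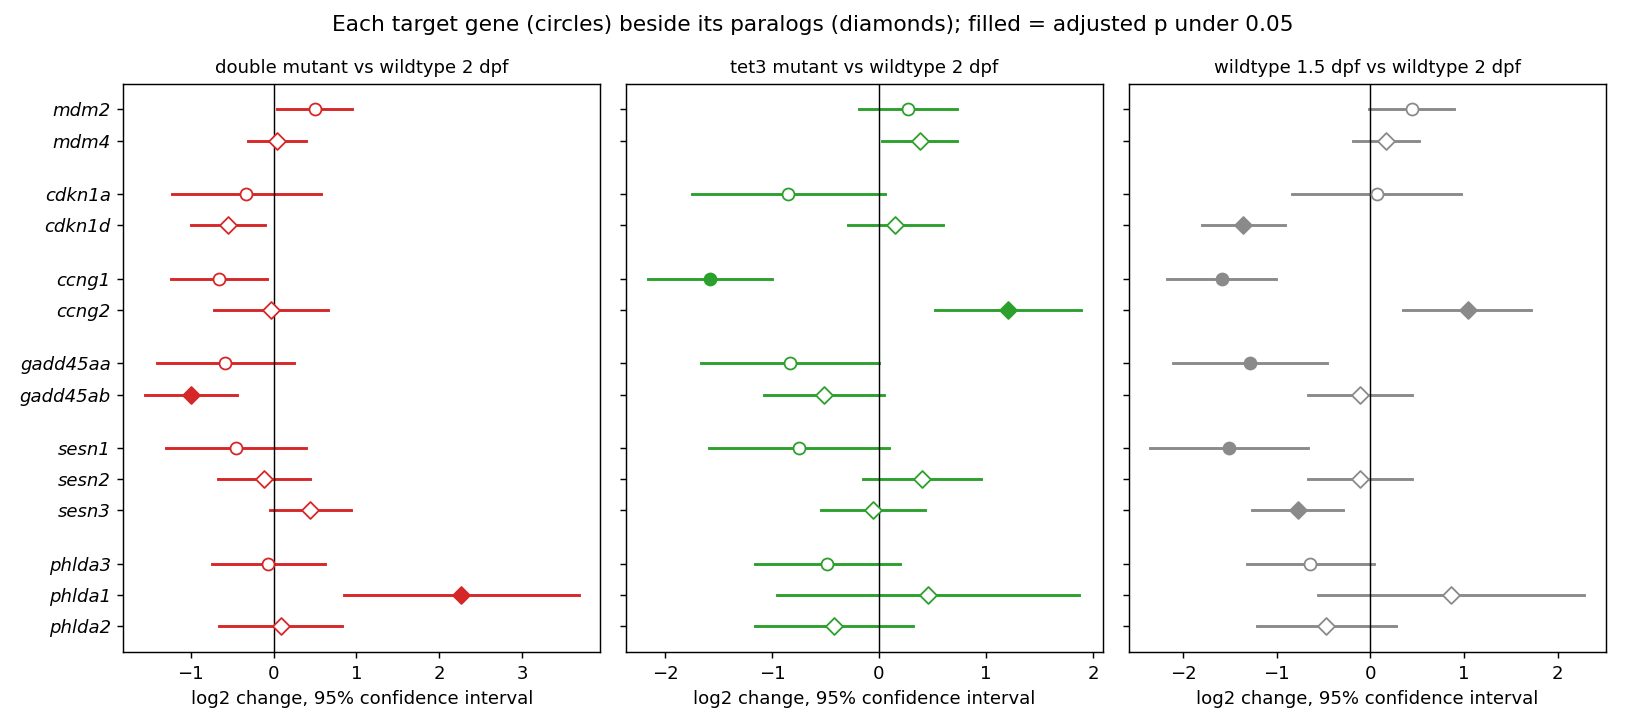
Log2 changes with 95% intervals (horizontal axes, log2 units) of the 6 targets (circles) and their closest paralogs (diamonds) in 3 comparisons against wildtype at 2 dpf; filled symbols have a limma adjusted p under 0.05. ccng1 and ccng2 lie on opposite sides of 0 in tet3 mutants (-1.58 and 1.21) and at 1.5 dpf (-1.59 and 1.04).

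The wider pathway was read from a list of 48 other genes, namely regulators and relatives of p53 and further p53 targets of arrest, repair and cell death, of which 43 were tested. At 1.5 dpf 8 rose and 3 fell, or 25.6% of the list beside 20.8% of all genes, with a median log2 difference of 0.24 beside -0.01. In tet3 mutants 4 rose and 1 fell (11.6% beside 7.27%, median 0.12 beside -0.04). Double mutants against wildtype gave 2 that rose and 4 that fell (14% beside 8.68%, median 0.06 beside 0.01), and tet2 mutants gave 0 by limma, edgeR and DESeq2, with 2, 2 and 3 at an unadjusted p under 0.05. By limma, 1002 of all 15933 genes had such a p-value in tet2 mutants. Double mutants against tet2 mutants gave 1 that rose and 2 that fell (6.98% beside 4.45%). Against tet3 mutants 1 fell (2.33% beside 2.33%) and the interaction gave 1 (2.33% beside 0.333%), both of them plk2b. These shares are counts over a chosen list and carry no test.

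Genes of DNA repair and cell death were among those that rose. ddb2, which recognises ultraviolet damage in DNA, was 69.0 ± 8.11 in wildtype at 2 dpf, 238 ± 56.9 at 1.5 dpf, 180.3 ± 32.2 in tet3 mutants and 176 ± 72.6 in double mutants. Its log2 rise was 1.75 (limma adjusted p = 0.0011), 1.36 (adjusted p = 0.014) and 1.27 (adjusted p = 0.015) in these 3 comparisons, which share their wildtype libraries. The last 2 calls were each lost in 3 of 6 fits with a library left out. In double mutants the ddb2 call was also lost with the reads of all libraries thinned to the same depth. bbc3, which encodes the pro-apoptotic protein Puma, held 54.4 ± 14.6 at 2 dpf and 233 ± 73.6 at 1.5 dpf, a log2 rise of 2.07 (limma adjusted p = 0.0051) that held with any library left out. perp, a membrane protein gene of cell junctions and p53-dependent death in mammals, rose in tet3 mutants from 1092 ± 172 to 2139 ± 41.7 (0.98, limma adjusted p = 0.0072). That call also held with any library left out. The summed level of epidermis markers was 76830 to 96132 in tet3 mutants against 41010 to 48334 in wildtype at 2 dpf. Its part in the perp rise was not tested. The autophagy regulator gene dram1 rose in tet3 mutants by 1.91 (limma adjusted p = 0.043, lost when any library was left out).

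At 1.5 dpf the checkpoint kinase genes chek1 (0.82) and chek2 (0.81), the replication clamp gene pcna (0.66), the translesion polymerase gene polh (0.99) and the death gene siva1 (1.00) also rose on the log2 scale. Of these, siva1 held when any library was left out, while chek1, chek2 and pcna were each lost in 4 of 6 such fits and polh in 6 of 6. pcna is also in the list of cell cycle and replication genes, of which 18 of 23 were higher at 1.5 dpf. The part of cell division in these stage differences was not tested. hipk2, whose kinase phosphorylates p53 in mammals, fell at 1.5 dpf by 1.42 (limma adjusted p = 0.0019) and in double mutants by 1.13 (adjusted p = 0.015). The stress kinase gene plk3 fell at 1.5 dpf by 1.06 (limma adjusted p = 0.0015), in tet3 mutants by 0.97 (adjusted p = 0.0078) and in double mutants by 0.75 (adjusted p = 0.023). The double mutant calls of hipk2 and plk3 were lost in 4 and 5 of 6 fits with a library left out.

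plk2b, a counterpart of a p53-inducible polo-like kinase gene of mammals, had its lowest level in double mutants. Its libraries held 436, 466 and 355 normalised reads in double mutants (419 ± 57.4), below every library of the other groups. Wildtype at 2 dpf held 1089 ± 196, tet2 mutants 1449 ± 318, tet3 mutants 1211 ± 199 and wildtype at 1.5 dpf 1453 ± 444. Double mutants were lower than wildtype by -1.37 on the log2 scale (limma adjusted p = 0.0017), than tet2 mutants by -1.77 (adjusted p = 0.00044) and than tet3 mutants by -1.52 (adjusted p = 0.0021). All 3 calls held with any library left out.

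For each member the genes most like it over the 15 libraries were taken as those with the smallest mean absolute difference in log2(value + 1), each gene centred on its own mean. Candidates were 12044 genes with a mean of at least 50, without those whose symbol was a clone or placeholder name or occurred more than once. ccng1 was closest to cds1 (0.21), slc25a25a (0.24) and dnajb6a (0.26), where ccng1 itself deviated from its mean by 0.72 on average. sesn1 was closest to maza (0.23), pard6a (0.24) and fam219aa (0.25), with an own deviation of 0.67. Closest to gadd45aa were gadd45ba (0.23), mych (0.23) and sod2 (0.24), with an own deviation of 0.49. cdkn1a had no close match, its nearest genes being baiap2b (0.36), jade1 (0.36) and dnajc27 (0.37) at an own deviation of 0.60. mdm2 was closest to irf2bp1 (0.11), psmd1 (0.13) and dhx16 (0.13), and phlda3 to smad5 (0.17), itga5 (0.18) and med16 (0.18), but these members deviated little themselves, by 0.24 and 0.29. These are descriptions over libraries that share their groups, and they carry no test.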

How the data were processed

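RNA of sorted neutrophils was sequenced in 15 libraries, grouped by their titles. RNA was purified with an RNeasy micro kit and made into libraries with TruSeq RNA v2, an unstranded kit, per the labels' protocols. TopHat, Cufflinks and DESeq2 were used by the authors, per the submitters' processing notes, without versions. As to genome build, annotation and counting, each is not given in the sources used here, so no coordinates or sequences are printed.

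The deposited table holds a signal per gene and library. From the values, the authors scaled whole read counts by 1 factor per library: 100.0% of values were whole multiples of 1 read's value, to a tolerance of 0.01 reads. Totals of recovered reads were 5.64 to 31.06 M. All per-sample columns matched a library. Libraries of a group differed by 3.98 to 284 times sampling noise (mean chi-square per gene), so none is a copy.

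Main tests used limma 3.58.1 (R 4.3.3), with robust moderation and a mean-variance trend, over 15 libraries and 5 group means, on log2 of the value plus 1. The filter asked for a value of 10 or more in 3 or more libraries and left 15933 genes, 4 fewer than deposited. Tests were two-sided, Benjamini-Hochberg adjusted over all tested genes in each of 7 comparisons, at a threshold of 0.05. Since the deposited values are normalised, count tests on recovered reads served as alternatives only (DESeq2 1.42.0, edgeR 4.0.16). The limma step was also run on simulated reads, where only double mutants were changed and each gene had the same spread in all groups. That run could not check spread that differs between groups, and its outcome is not given here. Other alternatives changed the pseudocount, filter, scaling, depth, weights of libraries, which libraries entered the fit, a replicate block, hsp70l as a covariate, and each library left out.

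The members and the 19 gene lists were chosen with earlier results of these data known. Named genes are the 6 members, their closest paralogs, and, of the lists on p53 regulators, other p53 targets and paralog families, those past the threshold, up to 6 per list and comparison, apart from some that are not reported here. To these come the 3 genes most like each member, and hsp70l, mpx and lyz as checks. The main fit did not pair libraries by replicate number, since the sources used here do not state what the numbers mean.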

Additional observations from a re-analysis of the deposited data

Results flagged for a closer look

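In plk2b the effect of losing tet3 differed between tet2 mutant and tet2 wildtype embryos. The interaction of tet2 and tet3 was -1.92 on the log2 scale (SE 0.334, limma adjusted p = 0.016), where the double mutants held 419 ± 57.4 normalised reads (SD, n = 3) and the other 3 groups at 2 dpf means of 1089 to 1449. With 1 of the 12 libraries of these groups left out at a time, the interaction was -2.12 to -1.81 and its adjusted p 0.0048 to 0.07. It passed in 7 of those 12 fits and in each of the 13 other alternatives. Of 20 endothelial markers, limma called 7 lower and 0 higher in the same interaction, beside 0.333% of all genes. Whether cell composition bears on plk2b was not tested.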

How the results depend on the processing

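Of the 7 comparisons, the number of members called moved in these alternatives. With limma's library weights it was 3 in double mutants against wildtype, 3 in tet3 mutants, 3 in double against tet2 mutants and 2 in double against tet3 mutants, beside 35.1, 25, 12 and 14.6% of all genes; the weights ran from 0.256 to 5.01. With only the compared groups in the fit it was 4 in tet3 mutants, beside 24.7% of all genes. With DESeq2 it was 1 in double mutants against tet2 mutants and 1 against tet3 mutants, beside 1316 and 854 of 15933 genes. With hsp70l as a covariate it was 0 in tet3 mutants and 0 at 1.5 dpf, beside 21 and 41 of 15933 genes. The other alternatives, replicate block included, left each count within 1.5 times the main count. With a library left out in turn, the count ran from 0 to 3 in double mutants against wildtype (3 without double mutant replicate 2) and from 1 to 3 at 1.5 dpf (1 without replicate 2 of either stage). It ran from 0 to 4 in double against tet2 mutants (4 without double mutant replicate 2, 1 without tet2 replicate 3) and from 0 to 1 in double against tet3 mutants (1 without double mutant replicate 1). Over all alternatives the number of genes called ran from 159 to 5591 in double mutants against wildtype (1383 in the values above), 0 to 111 in tet2 mutants (16), 21 to 3989 in tet3 mutants (1159) and 41 to 6639 at 1.5 dpf (3317). It ran from 70 to 1914 against tet2 mutants (709), 168 to 2324 against tet3 mutants (372) and 14 to 499 for the interaction (53).

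Directions that turned were those of small or uncalled changes, apart from 3 calls under the hsp70l covariate. On the log2 scale that covariate gave, at 1.5 dpf, 0.71 for sesn1, -0.21 for pcna and -0.06 for polh. It gave 0.97 for sesn1 in tet3 mutants, and in double mutants 0.30 for cdkn1a and 0.91 for sesn1. Against tet2 mutants it gave -0.04 for gadd45aa, 0.46 for sesn1 and -0.29 for phlda3, and against tet3 mutants -0.06 for sesn1. Library weights gave 0.08 for phlda3 in double mutants against wildtype, and for gadd45aa -0.43 against tet2 and -0.10 against tet3 mutants. The interaction of sesn1 was 0.19 by edgeR and 0.20 by DESeq2. The cause was not tested.

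With a library left out, the double mutant changes against wildtype ran from -0.70 to 0.10 for cdkn1a and -1.03 to 0.07 for sesn1, both above 0 without double mutant replicate 1, and -0.18 to 0.15 for phlda3, above 0 without double mutant replicate 2 (0.15) or wildtype replicate 3 (0.04). Those of tet2 mutants ran from -0.07 to 0.03 for mdm2, not below 0 without replicate 2 of wildtype or tet2 mutants, and from -0.17 to 0.26 for ccng1, below 0 without tet2 replicate 2 (-0.17) or wildtype replicates 2 or 3 (-0.01 each). cdkn1a at 1.5 dpf ran from -0.11 to 0.25, below 0 without replicate 3 at 1.5 dpf (-0.11) or replicate 2 at 2 dpf (-0.08). gadd45aa ran from -0.19 to 0.55 in double against tet2 mutants, below 0 without tet2 replicate 1 (-0.19) or double mutant replicate 1 (-0.08). Against tet3 mutants mdm2 ran from -0.04 to 0.44, gadd45aa from -0.01 to 0.47 and sesn1 from -0.28 to 0.82, with the low ends without double mutant replicates 3, 1 and 2. The interaction ran from -0.01 to 0.46 for mdm2, lowest without double mutant replicate 3, and from -0.63 to 0.47 for sesn1, above 0 without double mutant replicate 1 (0.47) or tet3 replicate 1 (0.06).

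Deviations from group means correlated at -0.29 to 0.19 between libraries of the same number and -0.34 to 0.49 between others. Libraries of the same number were thus not more alike than others. Whether they shared a clutch or sort is not stated, and these correlations cannot decide it. With the replicate block the count of members called stayed at 1 in tet3 mutants and 3 at 1.5 dpf, and 1221 genes were called in double mutants. The limma adjusted p with the block was 0.068 for phlda1 in double mutants and 0.056 for chek1 at 1.5 dpf, both past the threshold without it.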
